A study of Mus musculus with 22 samples.

Results

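IGHA is the heavy-chain constant region gene of immunoglobulin A, and the sequences described here are the rearranged V-D-J regions of kidney B cells that carried reads of that isotype. They were chosen as the lines of the 22 deposited tables whose identifier gives a read count above 0 for Igha, the first of the 9 isotype counts it holds, and were counted as unique V-D-J regions. The rule found 301 of 16448 unique V-D-J regions, or 1.83%, with 3396 of 123192 reads, in 20 of the 22 libraries and in all 11 mice. The constant region itself was trimmed from the deposited sequences, so the isotype rests on the count alone. Igha is the only isotype whose name the identifiers show in full. The ninth count, which held most reads, was taken as Ighm and the second as Ighd, from the alphabetical order of the names, and this order could not be checked.

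The study asked how the antibody repertoire of B cells within the kidney tissue differs from that of B cells in its blood vessels, and whether urinary infection changes it. Wild-type female C57BL/6 mice of 8 to 10 weeks received uropathogenic Escherichia coli (UPEC, 5 mice) or phosphate-buffered saline (PBS, 6 mice) into the bladder on 2 occasions, and kidneys were taken at day 56. An antibody to CD45 given into the blood before death labelled cells in vessels, and B cells were sorted into an unlabelled, extravascular and a labelled, intravascular fraction. Each mouse gave 1 library of each fraction. The libraries hold between 235 and 1993 unique V-D-J regions and between 936 and 18956 reads.

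A B cell first makes IgM, and class switching replaces the constant region of its heavy chain while the V-D-J region stays as it was. IgA is the isotype of mucosal secretions, made in quantity by plasma cells of the gut and also by B-1 cells. During the response to an antigen the V segment can gain point mutations, and the cells of 1 clone then share a CDR3, the stretch across the V-D-J joints that contributes most to antigen contact. In GRCm38, with GENCODE vM21 annotation, Igha lies on chromosome 12 from 113254830 to 113260236 on the minus strand. Ighm lies upstream of it at 113418558 to 113422730, and the V segments named here lie further upstream between 113597446 and 115623595. All are annotated as immunoglobulin genes.

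The Igha regions fell into 69 clonotypes, defined by CDR3 nucleotides, V segment and J segment. Clonotypes of 1 library with the same V, J and CDR3 length and with CDR3s linked by single-nucleotide differences were joined into 50 clonal families. Only 6 families had 10 or more regions, yet they held 242 regions, or 80.4%, and 89.0% of the Igha reads. All 6 came from extravascular libraries. The CDR3s of these families and of the largest intravascular family, printed from the conserved cysteine to the conserved tryptophan codon, show what the Igha repertoire consisted of. Capitals mark the nucleotides added between the V, D and J segments.
PBS mouse 2 extravascular, Ighv1-53 with Ighj2: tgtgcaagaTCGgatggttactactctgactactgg
UPEC mouse 5 extravascular, Ighv1-58 with Ighj2: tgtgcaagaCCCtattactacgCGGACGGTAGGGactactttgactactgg
UPEC mouse 5 extravascular, Ighv1-64 with Ighj2: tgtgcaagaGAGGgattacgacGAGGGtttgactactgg
UPEC mouse 5 extravascular, Ighv1-61 with Ighj4: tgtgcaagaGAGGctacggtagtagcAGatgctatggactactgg
UPEC mouse 5 extravascular, Ighv1-69 with Ighj4: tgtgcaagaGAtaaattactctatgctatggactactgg
PBS mouse 4 extravascular, Ighv5-4 with Ighj2: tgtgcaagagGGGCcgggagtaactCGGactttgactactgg
UPEC mouse 4 intravascular, Ighv3-5 with Ighj4: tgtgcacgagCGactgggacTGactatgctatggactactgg

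The Igha share was low in most libraries and high in 2. Among the 6 PBS mice, the extravascular Igha share of unique V-D-J regions was 0% in mouse 1, 8.10% in mouse 2, 0.0623% in mouse 3, 1.41% in mouse 4, 0.282% in mouse 5 and 0.181% in mouse 6. The 0 of 1993 regions in mouse 1 allows a share of up to 0.151%. Intravascular libraries of the same mice had shares of 0.532%, 0.256%, 0%, 0.683%, 0.608% and 0.169%, and the 0 of 486 regions in mouse 3 allows up to 0.617%. Mouse 2 stood above every other PBS library, and the ranges of the remaining libraries of both fractions overlapped.

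In the 5 UPEC mice the extravascular Igha share was 1.28%, 0.457%, 0.569%, 0.138% and 16.0% in mice 1 to 5. Intravascular shares were 0.571%, 0.606%, 0.177%, 0.992% and 0.822%. UPEC mouse 5 stood above all other libraries of the series, with 133 Igha regions of 831 (Wilson 95% interval 13.7% to 18.7%). PBS mouse 2 followed with 111 of 1370 (6.77% to 9.67%). All intervals and limits given here cover at most counting error and take each unit as an independent draw. Most Igha regions of these 2 libraries belonged to a few large families, so their intervals are too narrow. These 2 libraries held 244 of the 301 Igha regions, or 81.1%. Apart from them the highest extravascular share was 1.41% and the highest intravascular share was 0.992%.

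**Figure D1:**
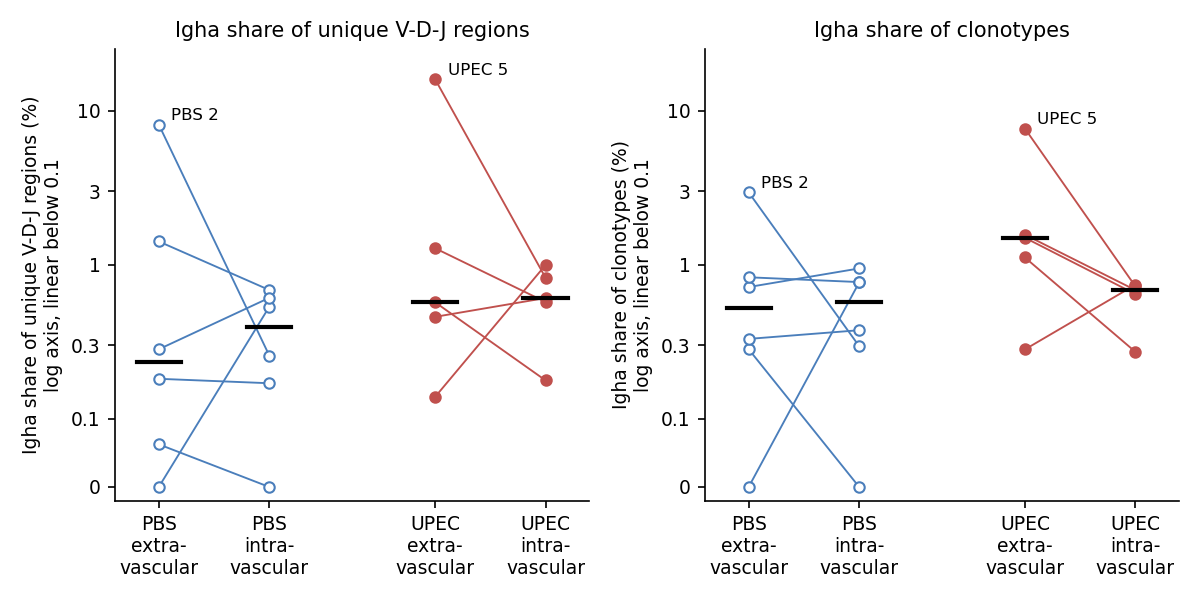
Igha share (%, log axis that is linear below 0.1) of unique V-D-J regions (left) and of clonotypes (right) in each of 22 libraries. Points are libraries, lines join the 2 libraries of a mouse, black bars are group medians, and PBS mouse 2 (8.10%) and UPEC mouse 5 (16.0%) stand above the rest in the left panel.

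Neither the compartment nor the challenge gave a difference larger than the spread between mice. In PBS mice the extravascular share averaged 1.67% ± 3.19 (SD, n = 6) and the intravascular share 0.375% ± 0.272, and 4 of the 6 pairs had the higher value in the extravascular library (p = 0.563 by a two-sided exact signed-rank test). Without PBS mouse 2 the mean difference of 1.30 percentage points became -0.0112. UPEC mice had means of 3.69% ± 6.90 and 0.634% ± 0.307 (SD, n = 5), and 3 of 5 pairs had the higher value extravascularly (p = 0.625 by the exact signed-rank test, where 5 pairs allow no p below 0.0625). Without UPEC mouse 5 their mean difference fell from 3.06 to 0.0236 percentage points. Merging V-D-J regions that differ by 1 nucleotide took the mean differences to 0.501 in PBS and 1.89 in UPEC mice, and weighting by reads took them to 2.40 and 5.21.

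Extravascular Igha shares of UPEC and PBS mice overlapped, with medians of 0.569% and 0.231% (exact Mann-Whitney test, two-sided, n = 5 and 6, p = 0.429). The difference of means, 2.02 percentage points, became -1.06 without UPEC mouse 5, 3.30 without PBS mouse 2 and 0.223 without both of these mice. Intravascular medians were 0.606% and 0.394% (exact Mann-Whitney test, p = 0.247). The compartment difference itself changed by 1.76 percentage points with challenge, within the spread between mice (exact permutation test, p = 0.582), and by -1.27 without UPEC mouse 5. In these bulk libraries, more B cells of the isotype and more Igha transcripts per cell cannot be told apart.

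Counting clonotypes reduces the weight of a clone with many regions but does not remove it, since the family of PBS mouse 2 alone held 11 clonotypes and the 13 families of UPEC mouse 5 held 22. Extravascular libraries of PBS mice held between 0 and 11 Igha clonotypes, or 0.849% ± 1.07 of all clonotypes (SD, n = 6), against 0.525% ± 0.359 in intravascular libraries (exact signed-rank test, p = 0.844), and without PBS mouse 2 the mean difference of 0.324 percentage points became -0.140. In UPEC mice the extravascular share was 1.49%, 1.56%, 1.11%, 0.281% and 7.64% of clonotypes in mice 1 to 5, against 0.643%, 0.683%, 0.271%, 0.739% and 0.722% in the intravascular fraction. Mouse 4 was the only UPEC animal without a higher extravascular value (p = 0.125 by the exact signed-rank test), and without UPEC mouse 5 the mean difference fell from 1.81 to 0.528 percentage points. The extravascular clonotype share of UPEC mice did not pass the test against PBS mice either (medians 1.49% and 0.522%, exact Mann-Whitney test, p = 0.247). The mean difference of 1.57 percentage points became 0.263 without UPEC mouse 5, 1.99 without PBS mouse 2 and 0.681 without both of these mice.

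Among the sequences taken as switched, those with reads in any count other than the second and the ninth, Igha was the most frequent isotype over all libraries. It made up 301 of 420 such regions, or 71.7% (67.2% to 75.8%). The intervals in this comparison also take regions of 1 family as independent and are too narrow for that reason. Extravascular libraries gave 78.5% (71.6% to 84.1%) for PBS and 74.5% (68.0% to 80.1%) for UPEC mice, and intravascular libraries 33.3% (19.2% to 51.2%) and 54.8% (37.8% to 70.8%). The extravascular shares rest on PBS mouse 2 and UPEC mouse 5, with 244 of the 274 Igha regions. Without these 2 libraries they were 34% (22.4% to 47.8%) for PBS and 35.1% (21.8% to 51.2%) for UPEC mice. That PBS value depended in turn on PBS mouse 6, with 28 extravascular regions of the other switched counts and 2 of Igha. PBS mice 1, 3, 4 and 5 had 0 to 2 regions of the other switched counts each. In PBS intravascular libraries the sixth count was ahead of Igha, with 12 regions against 10. Of the other switched counts, UPEC mouse 5 had the highest share too, with 30 regions, or 3.61% of its extravascular library, whereas PBS mouse 2 had 5, or 0.365%.

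The Igha regions of the 2 libraries with high shares lay mostly in large families. In PBS mouse 2 all 111 extravascular Igha regions belonged to 1 Ighv1-53 family, which held 11 clonotypes and 1456 reads, or 13.6% of all reads of that library, and contained the most abundant of its 374 clonotypes by reads. A single V-D-J region accounted for 1046 of those reads, or 71.8%. In UPEC mouse 5 the 133 regions fell into 13 families. The 4 large ones held 120 regions, or 90.2%, and 21.9% of the library's reads. Ighv1-58 gave 42 regions and 316 Igha reads, Ighv1-64 gave 35 and 535, Ighv1-61 gave 26 and 304, and Ighv1-69 gave 17 and 303. Their main clonotypes ranked 2, 1, 6 and 5 by reads among 288 clonotypes, which placed these Igha clones among the leading clones of that library.

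**Figure D2:**
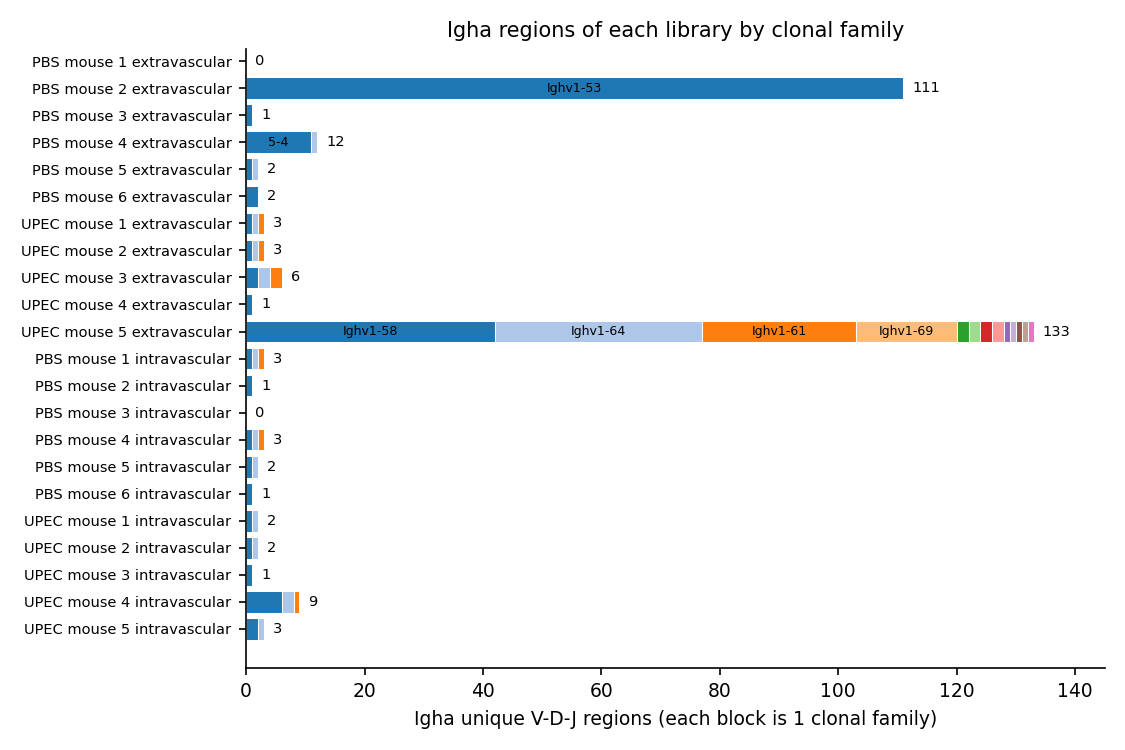
Number of Igha unique V-D-J regions in each library, divided into clonal families. Each block is 1 family, colours restart in each library and carry no meaning across them, and the V segment is written on the 6 families of 10 or more regions ("5-4" is Ighv5-4).

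Elsewhere Igha families were smaller. PBS mouse 4 had an extravascular Ighv5-4 family of 11 regions and 108 reads, the clonotype ranking 8 of 280 by reads. The largest intravascular family, Ighv3-5 in UPEC mouse 4, had 6 regions and 26 reads. No other family had more than 2 regions, and 33 of the 50 families were a single region. By group there were 7 families in PBS extravascular, 10 in PBS intravascular, 23 in UPEC extravascular and 10 in UPEC intravascular libraries, with 13 of the 23 in mouse 5. Intravascular Igha was thus spread thinly over 20 families, with 1 to 3 in each library that had any.

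Igha clonotypes were not shared between libraries, and few clonotypes of the ninth count were. No Igha V-D-J region and none of the 69 Igha clonotypes had Igha reads in more than 1 library, where 1.49% of 5446 clonotypes with ninth-count reads had such reads in more than 1 and none of 74 with reads in the third to eighth counts did. None of the 50 families had a region of any isotype in the other fraction of its own mouse, with the same V and J and a CDR3 within 1 nucleotide of its most read region. By the same rule 2.85% of 4390 ninth-count families did, and 4 of 70 families of the third to eighth counts, or 5.71%. Both shares lie within the Wilson interval of 0 of 50, 0% to 7.13%. The dominant family of PBS mouse 2 had 1 relative in another animal, an Igha region of 2 reads in the intravascular library of PBS mouse 4 with the same V and J segments. The CDR3s of the 2 mice, with the differing position in capitals, are printed because they are the only such pair.
PBS mouse 2 extravascular, Ighv1-53: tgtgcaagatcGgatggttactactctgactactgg
PBS mouse 4 intravascular, Ighv1-53: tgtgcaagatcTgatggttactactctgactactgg
They differ by G12T, counted from 1 at the first base of the CDR3, and the change leaves all 12 codons with the same residue. The V segments of the 2 regions shared none of their mismatches to germline, 4 in mouse 2 and 1 in mouse 4, and the whole regions differed at 6 positions. Neither CDR3 occurred in the 20 other libraries.

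V segment use followed the large families. V segments are the germline gene pieces that encode most of the variable domain, and 30 of the 80 named in the tables occurred with Igha. Ighv1-53 led with 113 Igha regions, or 37.5%, although these were 3 families, and made up 1.94% of clonotypes without Igha. Ighv1-58 had 44 regions in 2 families, Ighv1-64 had 37 in 2, Ighv1-61 had 27 in 2, Ighv1-69 had 19 in 2 and Ighv5-4 had 11 in 1. Counted by families the most frequent segment was Ighv5-17, with 6 families of at most 2 regions each in 5 mice, followed by Ighv3-5 with 4 families in 4 mice. Of the 30 segments, 21 occurred with Igha in 1 library only and 5 in both compartments. Among the 50 families 25 used the Ighv1 group, 10 the Ighv3 group and 8 the Ighv5 group, where clonotypes without Igha used them at 23.9%, 43.4% and 12.5%. Extravascularly the Ighv1 group had 21 of 30 Igha families, or 70%, against 25.2% of other clonotypes, and the Ighv3 group 2 of 30, or 6.67%, against 36.1%. Intravascularly the Ighv1 group had 4 of 20, or 20%, against 22.8%, and the Ighv3 group 8 of 20, or 40%, against 49.9%. Of the 21 extravascular Ighv1 families 9 came from UPEC mouse 5, and the difference between fractions was not tested. Clonotypes without Igha were not joined into families, here or below, so the units compared differ.

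**Figure D3:**
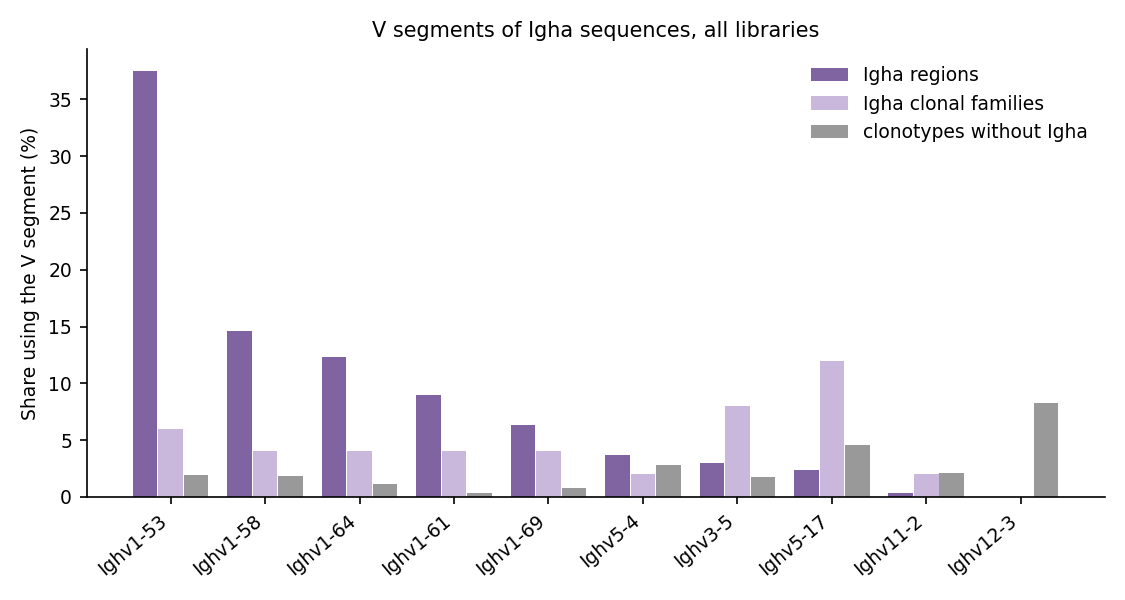
Share (%) of Igha unique V-D-J regions, of Igha clonal families and of clonotypes without Igha that used each V segment, over all 22 libraries. The 8 segments with the most Igha regions and the B-1a segments Ighv11-2 and Ighv12-3 are drawn, and Ighv1-53 falls from 37.5% of regions to 6% of families.

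Ighv11-2 and Ighv12-3 encode antibodies typical of B-1a cells that bind phosphatidylcholine, and they were rarely seen with Igha. No extravascular Igha region used either segment, in 274 regions and 30 families. Among other extravascular regions their share was 19.3% in PBS mouse 2, 36.9% in PBS mouse 4 and 12.5%, 35.8%, 48.5% and 26.9% in UPEC mice 1, 2, 3 and 5, the 6 libraries with at least 3 Igha regions. Igha regions were at 0% in all 6, a mean difference of -30.0 percentage points, and of -16.9 when every clonotype had equal weight. With 1 to 3 Igha families in 5 of these 6 libraries, a 0 could arise at many shares, so no p is given. The 0 of 30 families allows a share of up to 10% (Wilson limit 11.4%), and 13 of the 30 came from UPEC mouse 5. Of other extravascular clonotypes, which were not joined into families, 516 of 3142, or 16.4%, used either segment. Families and clonotypes are unlike units, so these shares are not directly comparable. In the intravascular fraction 1 of 20 families, or 5%, used Ighv11-2, in UPEC mouse 1 with 2 reads, and 5.07% of other clonotypes used either segment.

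Ighj2 was the leading J segment over all libraries. It occurred in 216 Igha regions, or 71.8%, and 19 families, Ighj4 in 67 regions and 16 families, Ighj3 in 13 and 10, and Ighj1 in 5 and 5. By families the shares were 38%, 32%, 20% and 10%, against 31.2%, 24.6%, 19.2% and 25.1% of clonotypes without Igha. PBS extravascular Igha regions were at 96.9% Ighj2, and 111 of these 124 belonged to the family of mouse 2. Ighj4 led in UPEC intravascular libraries, with 11 Igha regions in 5 families against 5 in 4 for Ighj2, and by families in UPEC extravascular libraries, with 9 against 7. All 6 families of 10 or more regions used Ighj2 (4 families) or Ighj4 (2 families).

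In the extravascular libraries with enough Igha regions to compare, Igha V segments carried more mutations than those of the regions without Igha, most of which had ninth-count reads. Mutation was measured as mismatches to the germline V segment of the same name, up to the CDR3. In the 6 extravascular libraries with at least 3 Igha regions, 1.83% of V bases of Igha regions were mismatched in PBS mouse 2 and 1.51% in PBS mouse 4, and in UPEC mice 1, 2, 3 and 5 the values were 2.51%, 3.61%, 1.53% and 0.725%. The other regions of the same libraries were between 0.226% and 0.267%. All 6 Igha means lay above all 6 means of other regions. Igha was higher by a mean of 1.70 percentage points ± 0.992 (SD of the differences). The exact signed-rank test, two-sided, gave p = 0.0313, the smallest that 6 pairs allow, and 0.203 after Benjamini-Hochberg adjustment over 13 tests. The 13 include the comparison of Ighv11-2 and Ighv12-3, for which no p is given, and without it the adjusted value would be larger. The difference was 1.85 percentage points when every clonotype had equal weight and 1.68 against regions with reads in the ninth count. Over all 10 extravascular libraries with any Igha region it was 1.23 percentage points, with Igha higher in 8 and lower in PBS mouse 3 and UPEC mouse 4, whose single Igha region had 0% (p = 0.00977, same exact test). Regions with reads in the third to eighth counts, with a mutation value and without Igha reads, numbered 2 to 23 in the 6 libraries and had means of 0%, 0.188%, 0%, 0.188%, 0.715% and 0.605% in the same order. Igha was higher than these in 6 of 6, by a mean of 1.67 percentage points (unadjusted p = 0.0313, same exact test), and by little in UPEC mouse 5, at 0.725% against 0.605%. UPEC and PBS mice did not differ beyond the spread in the mutation of Igha regions (2.09% in 4 mice and 1.67% in 2, exact Mann-Whitney test, p = 0.8, where the design allows no p below 0.133).

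**Figure D4:**
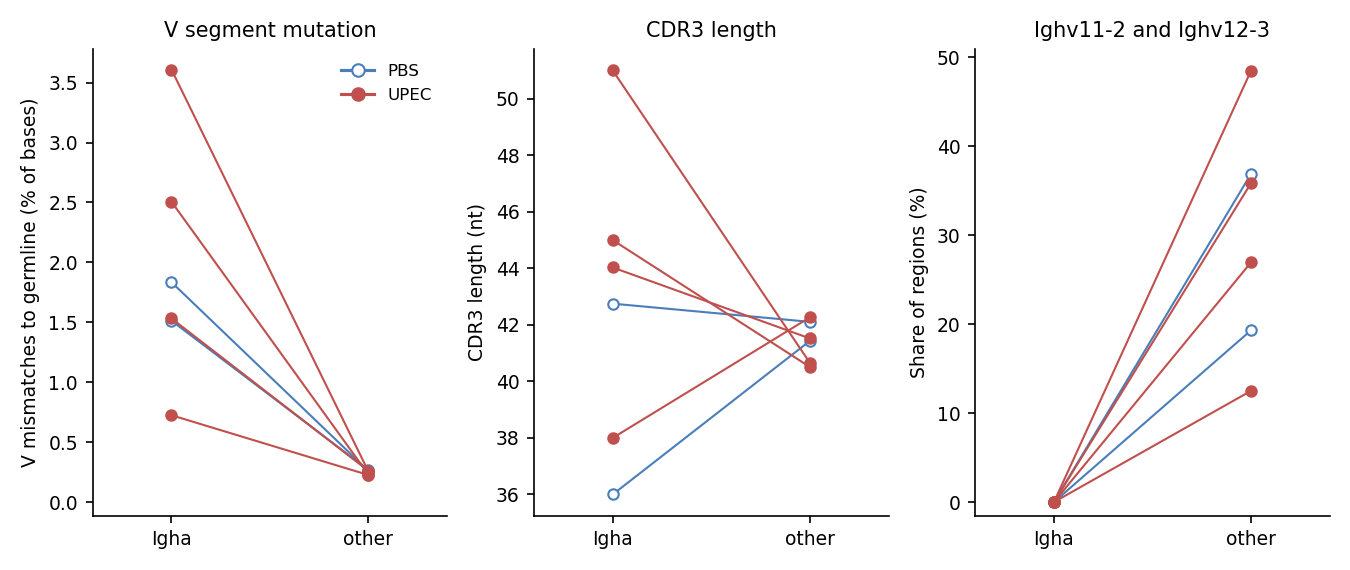
Means of Igha and of other unique V-D-J regions in the 6 extravascular libraries with at least 3 Igha regions, for V mismatches to germline (%), CDR3 length (nt) and the share using Ighv11-2 or Ighv12-3 (%). Lines join the values of a library, open points are PBS and filled points UPEC mice, and the left panel shows Igha higher in all 6.

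Seen family by family, Igha clones ranged from germline to heavily mutated. Of the 50 families, 21 had no mismatch in their most read region (42%, 29.4% to 55.8%), 14 had 1 to 4 and 15 had 5 or more, and the highest had 23. In the extravascular fraction 11 of 30 were without a mismatch (36.7%, 21.9% to 54.5%) and in the intravascular fraction 10 of 20 (50%, 29.9% to 70.1%). Clonotypes without Igha that had a mutation value were almost all germline, at 95.8% of 2836 extravascularly and 97.4% of 3071 intravascularly. These were drawn from 3142 and 3547 clonotypes without Igha. Median mismatches were 4 in PBS extravascular, 0 in PBS intravascular, 1 in UPEC extravascular and 3.5 in UPEC intravascular families. The 15 families with 5 or more mismatches came from 8 mice, and 14 of them had 1 or 2 regions. Of 180 mismatches, 138 lay in codons whose residue changed and 42 in codons whose residue stayed the same. A silent mismatch that shares its codon with another change is thus counted among the 138. In CDR1 or CDR2 fell 58 mismatches, or 32.2%, where these loops make up 18.3% of the bases compared.

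**Figure D5:**
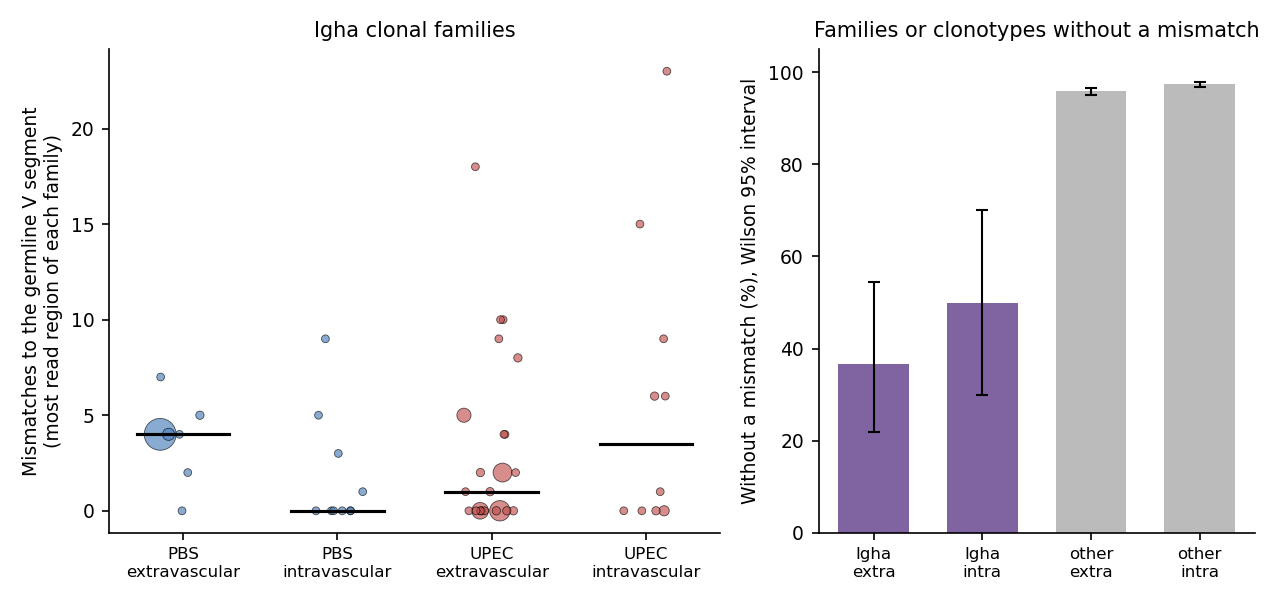
Left, mismatches to the germline V segment in the most read region of each of 50 Igha families, by group, with point area growing with the number of regions and black bars at the medians. Right, share (%) of Igha families and of clonotypes without Igha that had no mismatch, among those with a mutation value. Wilson 95% intervals lie between 21.9% and 70.1% for Igha and above 95% for the others.

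The V segments of 4 families show this range. Each is printed from the first deposited base to the base before the CDR3, with mismatches to germline in capitals, and positions are counted from 1 at the first printed base. The first is the most abundant Igha clone of the series, the second the most mutated of the 4 large families of UPEC mouse 5, the third the family of UPEC mouse 3 with the most Igha reads, and the last the most mutated family, seen in 2 reads.
PBS mouse 2 extravascular, Ighv1-53: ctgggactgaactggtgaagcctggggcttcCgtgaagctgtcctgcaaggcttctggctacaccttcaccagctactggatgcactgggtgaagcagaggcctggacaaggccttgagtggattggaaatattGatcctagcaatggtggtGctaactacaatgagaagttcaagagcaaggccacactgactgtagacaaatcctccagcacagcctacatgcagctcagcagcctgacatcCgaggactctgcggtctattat
UPEC mouse 5 extravascular, Ighv1-69: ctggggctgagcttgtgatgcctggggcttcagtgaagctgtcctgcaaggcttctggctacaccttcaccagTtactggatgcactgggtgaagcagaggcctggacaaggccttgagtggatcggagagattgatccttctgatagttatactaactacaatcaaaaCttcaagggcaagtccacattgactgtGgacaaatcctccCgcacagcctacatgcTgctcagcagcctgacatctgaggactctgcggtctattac
UPEC mouse 3 extravascular, Ighv1-34: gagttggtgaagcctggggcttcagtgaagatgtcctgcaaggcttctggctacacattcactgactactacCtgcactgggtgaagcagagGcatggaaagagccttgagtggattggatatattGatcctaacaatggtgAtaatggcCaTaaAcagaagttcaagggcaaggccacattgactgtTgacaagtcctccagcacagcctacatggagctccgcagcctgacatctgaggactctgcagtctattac
UPEC mouse 1 intravascular, Ighv5-17: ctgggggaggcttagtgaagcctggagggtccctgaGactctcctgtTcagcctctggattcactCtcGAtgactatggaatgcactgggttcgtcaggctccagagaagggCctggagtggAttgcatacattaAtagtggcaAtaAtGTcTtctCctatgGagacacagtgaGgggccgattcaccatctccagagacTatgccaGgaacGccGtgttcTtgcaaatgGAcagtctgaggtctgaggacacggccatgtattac
The Ighv1-53 clone of PBS mouse 2 had 4 mismatches in 266 bases, A32C, A135G, A153G and T245C, of which 2 changed a residue. The Ighv1-69 clone of UPEC mouse 5 had 5 mismatches, C74T, G170C, A197G, A210C and A226T, of which 3 changed a residue. The Ighv1-34 clone of UPEC mouse 3 had 65 Igha reads and 8 mismatches in 258 bases, and no region without Igha in the series used that segment. The Ighv5-17 region of UPEC mouse 1 had 23 mismatches in 266 bases, and 21 lay in codons with a changed residue. The other large families of UPEC mouse 5 had fewer, with 0 mismatches in the Ighv1-58 and Ighv1-61 families and 2 in the Ighv1-64 family. In PBS mouse 4 the Ighv5-4 family had 4, all changing a residue.

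Most regions within a large family were close copies of its most read region. The 6 large families held 236 further regions, of which 199 differed from the most read one by 1 nucleotide, 29 only in where the sequence ended and 8 by more. In PBS mouse 2 the 102 regions at 1 nucleotide changed 90 positions, with a median of 2 reads and at most 9. The Ighv1-58 family of UPEC mouse 5 had 36 such regions at 35 positions, again with a median of 2 reads. The most read region held between 41.7% and 81.2% of a family's Igha reads. Transitions made up 16.1% of the single-nucleotide differences in Igha families and 15.3% in the 175 clonotypes of 10 or more regions without Igha, in which 6808 of 7789 further regions lay at 1 nucleotide. Whether these variants arose in the cell or in library preparation was not tested. Ighv5-4 of PBS mouse 4 was the most diverse large family, with 3 of 10 further regions more than 1 nucleotide away.

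CDR3 length of Igha regions varied among mice in both directions. The means were 36.0, 42.8, 45.0, 38.0, 51.0 and 44.0 nucleotides in PBS mice 2 and 4 and UPEC mice 1, 2, 3 and 5, whereas other regions had means between 40.5 and 42.3. Igha regions were longer in 4 of 6 libraries, by a mean of 1.38 nucleotides ± 5.83 (exact signed-rank test, p = 0.688). Without UPEC mouse 3 the mean difference was -0.411, over all 10 extravascular libraries with any Igha region it was 0.114, and with single-nucleotide variants merged 0.870. Over Igha families the CDR3 had a median of 40.5 nucleotides extravascularly (range 24 to 63) and 36 intravascularly (24 to 48). The median of clonotypes without Igha was 42 in both fractions.

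Insert size, the number of nucleotides added at the V-D and D-J joints, was 3, 7.08, 8.67, 4.67, 12.3 and 9.10 in Igha regions of the same libraries and between 3.34 and 5.55 in the others. Igha was higher in 5 of 6, with PBS mouse 2 the exception, by a mean of 3.00 nucleotides ± 3.60 (p = 0.0938, exact signed-rank test). When every clonotype had equal weight, the difference was 1.30 nucleotides (p = 0.563, same exact test). With all 10 extravascular libraries that had any Igha region it was 3.43 nucleotides (unadjusted p = 0.0195, same exact test).

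Of the 50 Igha families, 7 had reads of another count in the same library, or 14% (6.95% to 26.2%), against 5.79% of 4390 ninth-count families and 22.9% of 70 families of the third to eighth counts together. Among families of 1 region it was 1 of 33 for Igha, or 3.03% (0.537% to 15.3%), 4.71% for the ninth count and 9 of 54, or 16.7% (9.02% to 28.7%), for the third to eighth counts. All 7 were among the 30 extravascular families, 6 of the 23 from UPEC mice and 1 of the 7 from PBS mice. Most of these 6 came from UPEC mouse 5, which held 13 of the 23 families. A difference between treatments was not tested. Only 1 family, that of PBS mouse 2, had reads in the ninth count taken as Ighm, with 2 reads against 1456 of Igha, and those 2 reads lay on a V-D-J region identical to its most read Igha region. That family also had 25 reads in the fifth count. No Igha family had reads in the second count. The Ighv1-58 family of UPEC mouse 5 was the most mixed, with 316 Igha reads, 132 in the fifth count, 12 in the seventh, 4 in the eighth and 1 in the third. In the same library the Ighv1-69 family had 13 and the Ighv1-61 family 1 read in the fifth count, and a minor Ighv3-5 family had 2 Igha reads and 18 in the sixth. In UPEC mouse 3 an Ighv1-55 family had 27 Igha reads and 48 in the sixth count, and an Ighv1-69 family had 3 and 21 in the fourth. The remaining 43 families had Igha reads alone. Every deposited sequence has at least 2 reads over its 9 counts together, so a relative with a sequence of its own and a single read would not be in the tables.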

How the data were processed

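Each of the 22 libraries has its own table of 119 columns, deposited by the authors, in which every retained Igh sequence takes up 1 line. Before deposit they removed low-quality reads with QUASR, joined the paired reads and discarded barcodes whose reads disagreed. The isotype was named by short matches to IMGT constant regions, sequences read only once were dropped, and IMGT/V-QUEST gave the V and J names. The deposited values are other than expression levels, namely nucleotide sequences, positions, segment names and 9 whole-number read counts per identifier, and none was normalized by the authors. The counts are called reads here, but since reads were collapsed by barcode before this step they may be barcode-collapsed molecules, which could not be settled from the tables.

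From the 17178 lines, identical V-D-J regions of a library were joined and their counts summed. Igha lines numbered 304, and 11 had several possible V names, of which the first was taken. Mismatches were counted against the germline segment in GENCODE vM21 transcripts, without gaps, with at least 100 aligned bases and at most 15% mismatches. Of 80 V names 78 were found there, and 1298 of all 16448 regions, 6 of them Igha regions, had no value. Germline differences between the mice and GRCm38 would count as mutations. On simulated data, known numbers of mismatches planted in the V segments of 295 Igha regions were recovered in 100% of them. Fractions were paired within a mouse, which the sample titles number, and the tests were exact and two-sided with a threshold of 0.05 and Benjamini-Hochberg adjustment over 13 tests, of which none passed. Alternatives were held to the unadjusted p. The mice came from a single experiment. Python 3.11.15, pandas 2.3.3, scipy 1.17.1 and biopython 1.88 were used.

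The Igha sequences, gene lists and tests were chosen with earlier results of these data known. Named V segments were the 8 with the most Igha regions plus Ighv11-2 and Ighv12-3, and named clones the most frequent of each library with at least 3 Igha regions and the most frequent overall. Clonal families, their comparison with families of other counts, the pair of Ighv1-53 CDR3s and other families named were chosen after the data were seen. Alternatives covered weighting by reads, the minimum of Igha reads and regions, the merging of single-nucleotide variants, the clonotype definition, the pairing, the test and each mouse left out.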

Additional observations from a re-analysis of the deposited data

Results flagged for a closer look

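In 5 of 8 sets of values, formed by 2 measures in 4 groups, a single library stood apart from its group. The criterion was the gap to its nearest neighbour divided by the group's range. About 1 of 20 groups of independent, normally distributed values would meet it by chance. Most shares here rest on few regions and both measures come from the same libraries, so that rate need not hold. PBS mouse 2 had an extravascular Igha share of 8.10% of unique V-D-J regions, where the next PBS library had 1.41%, and 2.94% of clonotypes, where the next had 0.826%. UPEC mouse 5 had 16.0% of regions, where the next UPEC library had 1.28%, and 7.64% of clonotypes, where the next had 1.56%. UPEC mouse 3 had the lowest intravascular share of clonotypes in its group, 0.271%, where the next had 0.643%. These shares are 1 of 369 clonotypes in UPEC mouse 3 and 2 of 311 in UPEC mouse 1. The shares of PBS mouse 2 rest on 1 clonal family, and those of UPEC mouse 5 on 13.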

How the results depend on the processing

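Of 180 alternative values over 13 results, 158 kept the direction and the side of an unadjusted p of 0.05. With at least 5 Igha regions per library (4 libraries, which allow no p below 0.125) the mutation difference was 1.15 percentage points and the difference in Ighv11-2 and Ighv12-3 was -32.9. The same minimum turned the mutation difference between UPEC and PBS mice to -0.545. A minimum of 1 region gave an insert size difference of 3.43 nucleotides with an unadjusted p of 0.0195 (exact signed-rank test). Every other reversal came from leaving out a single mouse.

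With each mouse left out in turn, the compartment difference in Igha share of regions ranged from -0.0112 to 1.66 percentage points in PBS and from 0.0236 to 4.03 in UPEC mice, the extravascular difference between UPEC and PBS mice from -1.06 to 3.30, the intravascular one from 0.169 to 0.373, and the change of the compartment difference from -1.27 to 3.07. For clonotypes the ranges were -0.140 (without PBS mouse 2) to 0.542 in PBS, 0.528 to 2.37 in UPEC mice and 0.263 to 2.10 between them. Mutation differences ranged from 1.37 to 1.95 between Igha and other regions, where 5 libraries allow no p below 0.0625, and from -0.0862 (without UPEC mouse 2) to 0.875 between UPEC and PBS mice. The range was -0.411 to 2.74 nucleotides for CDR3 length, 1.79 to 3.92 for insert size, and -33.5 to -26.3 percentage points for Ighv11-2 and Ighv12-3.

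The fractions were paired by mouse. Without this pairing as a replicate block, exact Mann-Whitney tests of the compartment differences gave p = 0.981 in PBS and 1 in UPEC mice for regions, and 0.981 and 0.0952 for clonotypes. Igha and other regions were paired within a library, and an exact Mann-Whitney test of the mutation difference of 1.70 percentage points without that pairing gave p = 0.00216. No call changed. Merging single-nucleotide variants took the insert size difference to 1.83 nucleotides (p = 0.438, exact signed-rank test) and the mutation difference to 1.69. The merging in the within-library results, the comparison with the third to eighth counts, and leaving out PBS mouse 2 and UPEC mouse 5 together, were chosen after seeing the data. Outside those 2 libraries there were 57 Igha regions in all, so that most shares rest on 0 to 12 regions.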
